A study of Mus musculus with 14 samples.

Results

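Genes of calcium/calmodulin signalling were followed across the mouse hippocampus: the CaMKII kinase genes Camk2a, Camk2b, Camk2d and Camk2g, the CaMKII inhibitor gene Camk2n1, the kinase gene Camk4, the calmodulin genes Calm2 and Calm3, and the neurogranin gene Nrgn. They were chosen by symbol for their function, and make up 9 of the 22485 genes in the gene table. All 9 passed the filter on low counts, as did 13063 genes in all. The study asked how dissociating tissue with an enzyme, as is done before single cells are profiled, alters the transcripts measured. Tissue came from 3 subregions of the hippocampus of a wild-type C57BL/6 mouse: CA1, CA3 and the dentate gyrus (DG). Dissociated tissue was held at room temperature for 75 min in artificial cerebrospinal fluid with pronase, a mixture of proteases, at 1 mg/ml, and was then spun down and triturated in fluid with 1% FBS before RNA was isolated. Control tissue went straight into the same RNA isolation kit. CA1 was covered by 3 dissociated and 3 control libraries, CA3 by 2 of each and DG by 2 of each. All 14 came from 1 mouse and were sequenced in 1 job, according to the sample table that the authors deposited, and every p-value here therefore reflects the spread between tissue pieces of 1 animal.

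Calmodulin is the main calcium sensor inside cells, and its calcium-bound form switches on the CaM kinases. CaMKII is a large ring of alpha, beta, gamma and delta subunits, encoded by Camk2a, Camk2b, Camk2g and Camk2d. In excitatory neurons of the forebrain it is one of the most abundant synaptic proteins, and it is required for long-term potentiation at hippocampal synapses. Neurogranin, a small postsynaptic protein, holds calmodulin when calcium is low and lets it go when calcium rises.

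Calm2 and Calm3 are separate genes with the same protein product, and kallisto, which assigned the reads, had to tell their transcripts apart by sequence. Their coding sequences are shown first because they bear on whether the counts of each can be read separately. Both have 450 coding bases, of which 372 are identical and 78 differ (82.7% identity), and the proteins they encode are identical. The first 150 coding bases of the main transcript of each gene follow, from GENCODE M21 (GRCm38, minus strand of chromosome 17 for Calm2 and of chromosome 7 for Calm3), with the 23 bases that differ between them in capitals.

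Calm2: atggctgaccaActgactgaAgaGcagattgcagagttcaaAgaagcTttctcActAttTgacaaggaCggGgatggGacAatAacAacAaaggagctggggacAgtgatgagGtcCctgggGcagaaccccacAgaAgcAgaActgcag
Calm3: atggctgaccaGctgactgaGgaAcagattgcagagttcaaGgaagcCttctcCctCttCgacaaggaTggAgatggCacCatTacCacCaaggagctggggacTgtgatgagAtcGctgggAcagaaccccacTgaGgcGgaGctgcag

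The longest run of bases shared by the full Calm2 and Calm3 transcripts was 17. The reads of Camk2g were divided among 3 transcripts, which differ in an internal stretch of their coding sequence. A stretch of 102 coding bases in Camk2g-201, at coding positions 991 to 1092, is missing from Camk2g-203. Camk2g-202 keeps only the last 69 of these bases. In the lines below, read on the minus strand of chromosome 14, the 33 bases present in Camk2g-201 and absent from Camk2g-202 are in capitals.

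Camk2g-201: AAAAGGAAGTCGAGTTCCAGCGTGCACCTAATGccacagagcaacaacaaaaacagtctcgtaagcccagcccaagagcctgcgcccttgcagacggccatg
Camk2g-202: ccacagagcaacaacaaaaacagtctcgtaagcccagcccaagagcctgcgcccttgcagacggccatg

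Total estimated counts ran from 65887 to 4782767 in the 7 dissociated libraries and from 1285654 to 6646655 in the 7 control libraries, and 3 dissociated libraries had fewer than 500000. Counts were scaled to a common library total with TMM (CPM), and a gene was called where the Benjamini-Hochberg adjusted p of edgeR's quasi-likelihood test, over all 13063 genes, was under 0.05. Fold changes are log2 values with their SE, dissociated minus control or first-named minus second-named subregion. Of 10 oligodendrocyte markers, 8 were called higher in dissociated tissue, with summed levels of 1508 to 12860 CPM in dissociated and 639 to 3848 CPM in control libraries. Of 10 microglia markers, 7 were called higher, with sums of 605 to 2202 and 278 to 511 CPM. Of 13 excitatory neuron markers, 0 were called (edgeR), with sums of 3855 to 9679 and 5382 to 10164 CPM. All 10 astrocyte markers had positive fold changes and 0 were called. The part of these cell types in any result below was not tested, and in tissue RNA fewer cells of a type and less RNA per cell cannot be told apart. The subregion labels were only partly borne out by markers. All 7 granule cell markers had negative fold changes in both CA1 and CA3 against DG, with 6 and 5 called lower, and their sums were 50.8 to 164 CPM in CA1 and 50.8 to 101 CPM in CA3 against 548 to 1883 CPM in DG. Between CA1 and CA3, 0 of 5 CA1 markers were called, where 0.115% of all genes were called (edgeR). The CA1 markers summed to 574 to 3205 CPM in CA1 libraries and 531 to 2607 CPM in CA3 libraries, against 122 to 485 CPM in DG libraries. The CA3 markers summed to 394 to 986 CPM in CA3, 197 to 818 CPM in CA1 and 95.3 to 425 CPM in DG libraries.

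Levels were compared between genes in TPM, transcript abundance corrected for length and scaled to a common total. Nrgn averaged 2172 ± 661 TPM in dissociated and 2773 ± 539 TPM in control libraries (SD, n = 7 each). Calm2 followed with 1653 ± 364 and 2624 ± 598 TPM, and Calm3 with 1358 ± 348 and 1863 ± 256 TPM. Camk2a and Camk2b, the alpha and beta subunits of CaMKII, came next. Camk2a averaged 1534 ± 695 TPM in dissociated and 1578 ± 449 TPM in control libraries, and Camk2b 659.6 ± 328 and 1051 ± 303 TPM. In control libraries these 5 held ranks 18 (Nrgn), 19 (Calm2), 33 (Calm3), 38 (Camk2a) and 71 (Camk2b) among all 22485 genes by mean TPM. Camk2n1 lay at rank 445, with 289.7 ± 85.8 and 308 ± 76.4 TPM in dissociated and control libraries. Camk2g lay at rank 1924, with 80.4 ± 52.3 and 92.6 ± 50.7 TPM. Camk2d and Camk4 were rare, at ranks 8190 and 8307. Camk2d averaged 12.3 ± 9.35 TPM in dissociated and 15.8 ± 15.9 TPM in control libraries, and Camk4 7.52 ± 4.49 and 15.3 ± 5.64 TPM. The order was not equally firm at each step. Camk2a exceeded Camk2b, Camk2b exceeded Camk2n1, and Camk2n1 exceeded Camk2g in 14 of 14 libraries, and Calm2 exceeded Calm3 and Camk2g exceeded Camk2d in 13 of 14. Nrgn was above Calm2 in only 9 of 14 libraries, Calm3 above Camk2a in 9 of 14, and Camk2d above Camk4 in 6 of 14, so these neighbours did not separate.

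**Figure D1:**
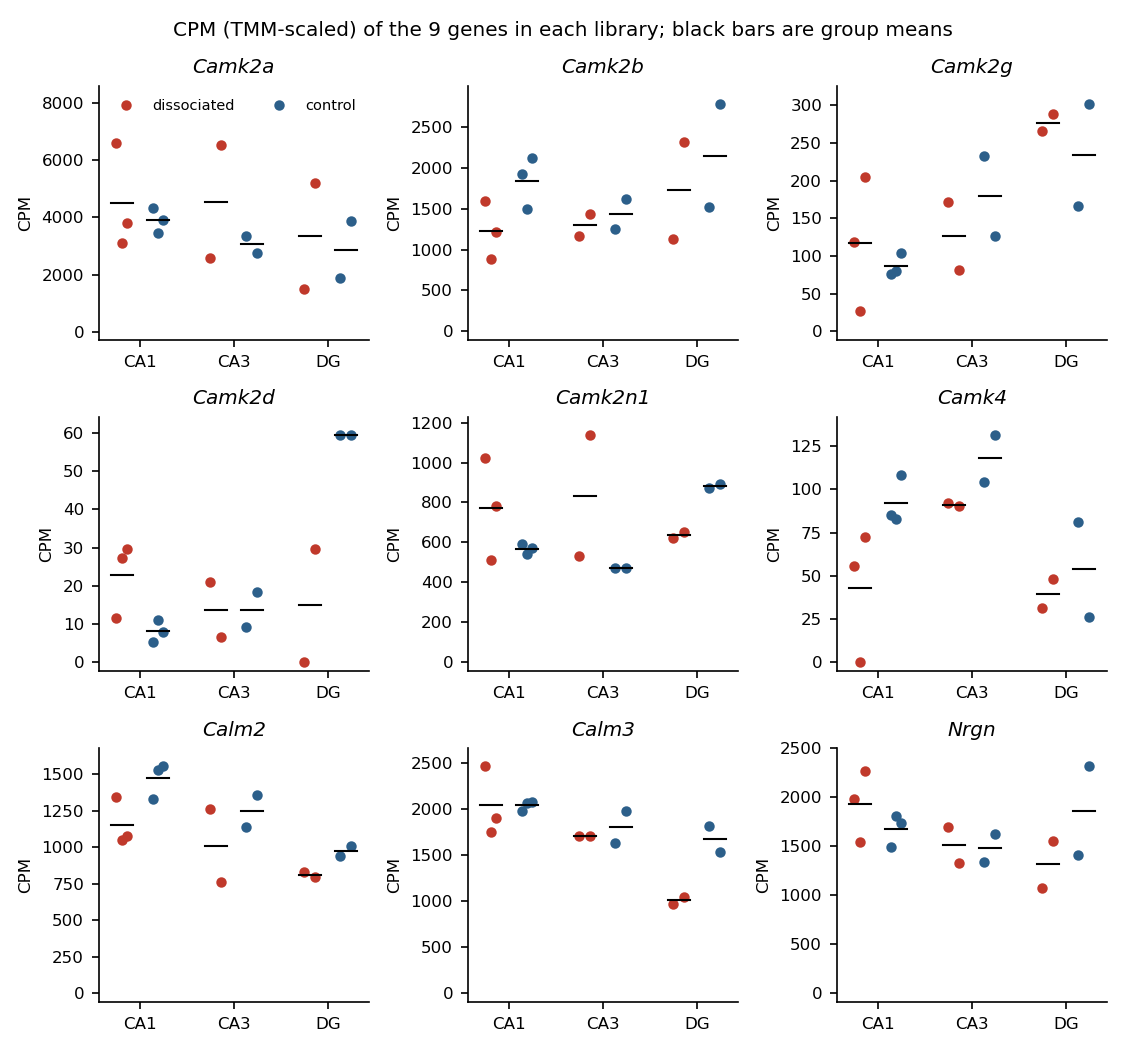
TMM-scaled CPM of each of the 9 genes (y axis, linear, a scale of its own in each panel) in every library, by subregion (x axis); red points are dissociated and blue points control libraries, and black bars are group means. The group means of Camk2g are highest in DG, and both DG control libraries stand at 59.4 CPM of Camk2d. Dissociated and control points overlap in every subregion for Camk2a, Camk2b, Camk2g and Nrgn.

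Dissociation left the members without a called difference. Of the 9 genes, 0 were called higher or lower in dissociated tissue across subregions (edgeR), and 0 had an unadjusted p under 0.05. DESeq2 also called 0, and 478 genes in all. Over all genes, 0.773% were called by edgeR, 95 of them higher and 6 lower, and 12.4% had an unadjusted p under 0.05. On the log2(TPM + 1) scale, where the median of all genes was -0.64, limma called 7 higher and 48 lower, and 0 members. On that scale the values of Camk2a, Camk2g, Camk2d and Camk2n1 turned negative. The median log2 fold change of the members was -0.04, against -0.11 over all genes tested. The 95% intervals show what sizes remain possible, and for every member the interval included 0.

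Camk2a (ENSMUSG00000024617, chromosome 18 at 60925618 to 60988152, GRCm38) encodes the alpha subunit, the main CaMKII subunit of forebrain excitatory neurons. It reached 6608, 3091 and 3811 CPM in the dissociated CA1 libraries (replicates 1, 2 and 3), against 4320.0, 3461 and 3908 CPM in control CA1. In CA3 it had 2572 and 6535 CPM in dissociated and 3349 and 2765 CPM in control libraries, and in DG 1498 and 5198 against 1882 and 3878 CPM. One dissociated library of each subregion stood above every control library of that subregion, and at least 1 other below every control one. The fitted log2 fold change was 0.32 ± 0.26 (SE; 95% interval -0.22 to 0.86, edgeR adjusted p = 0.652).

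Camk2b (ENSMUSG00000057897, chromosome 11 at 5969644 to 6066362) encodes the beta subunit, which binds actin filaments and anchors the enzyme in dendritic spines. Its levels were 1593, 889 and 1211 CPM in dissociated CA1, against 1926, 1489 and 2112 CPM in control CA1. In CA3 they were 1168 and 1433 CPM in dissociated and 1251 and 1613 CPM in control libraries, and in DG 1124 and 2319 against 1517 and 2776 CPM. The lowest library of each subregion was a dissociated one and the highest a control one, but the groups overlapped in each. Its fitted log2 fold change was -0.37 ± 0.21 (95% interval -0.80 to 0.06, edgeR adjusted p = 0.474).

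Camk2n1 (ENSMUSG00000046447, chromosome 4 at 138454314 to 138460123) encodes a small inhibitor that binds and blocks active CaMKII. It had 1025, 513 and 782 CPM in dissociated CA1, against 592, 543 and 572 CPM in control CA1. The direction differed between the other subregions. Both dissociated CA3 libraries, at 531 and 1137 CPM, were above both control ones at 474 CPM each, whereas both dissociated DG libraries, at 624 and 655 CPM, were below the control ones at 872 and 891 CPM. Such separation in opposite directions in CA3 and DG was found for 5.53% of all genes. Over all subregions the log2 fold change was 0.31 ± 0.22 (95% interval -0.15 to 0.77, edgeR adjusted p = 0.603).

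Camk4 (ENSMUSG00000038128, chromosome 18 at 32934931 to 33191228) encodes a kinase that acts largely in the nucleus, where it phosphorylates the transcription factor CREB. Its levels were 55.7, 0 and 72.6 CPM in dissociated CA1, against 85.0, 82.6 and 108 CPM in control CA1. In CA3 they were 92.1 and 90.2 CPM in dissociated and 104 and 131 CPM in control libraries, so the groups did not overlap in CA1 or in CA3. Of the 9 members, 2 separated in this way in CA1 (Camk4 and Camk2d), 2 in CA3 (Camk4 and Camk2n1) and 4 in DG (Camk2d, Camk2n1, Calm2 and Calm3), where 23.1%, 33.8% and 40.5% of all genes did. The count of 0 came from dissociated CA1 replicate 2, a library of 135065 counts in which it allows up to 20.5 CPM. In DG the groups overlapped, with 31.2 CPM, from 2 counts, and 47.9 CPM in dissociated and 81.4 and 26.3 CPM in control libraries. The fitted log2 fold change, -0.58 ± 0.33, was the lowest of the 9 but was not called (95% interval -1.26 to 0.10, edgeR adjusted p = 0.489).

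The calmodulin genes behaved alike in sign. Calm2 (ENSMUSG00000036438, chromosome 17 at 87433412 to 87446935) had 1341, 1046 and 1076 CPM in dissociated CA1, against 1331, 1526 and 1554 CPM in control CA1. It had 1259 and 761 CPM in dissociated and 1139 and 1356 CPM in control CA3, and 827 and 795 against 941 and 1004 CPM in DG, where both dissociated libraries were the lower ones. Its log2 fold change was -0.31 ± 0.17 (95% interval -0.66 to 0.04, edgeR adjusted p = 0.461). Calm3 (ENSMUSG00000019370, chromosome 7 at 16915379 to 16924114) gave -0.22 ± 0.17 (95% interval -0.58 to 0.13, edgeR adjusted p = 0.626).

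For Calm3 the subregions looked unlike. CA1 held 2461, 1751 and 1901 CPM in dissociated and 1974, 2062 and 2072 CPM in control libraries, and CA3 1704 and 1709 against 1633 and 1976 CPM. In DG the 2 dissociated libraries, at 968 and 1048 CPM, were the lowest of all 14, against 1816 and 1530.0 CPM in control DG. The same 2 libraries also had the lowest sums of excitatory neuron markers, at 3855 and 5036 CPM. Their astrocyte markers summed to 5369 and 5809 CPM, against 3537 and 2252 CPM in control DG. The part of these cell types was not tested. Within DG the log2 fold change was -0.73 ± 0.31, with an unadjusted p of 0.0304 and an edgeR adjusted p of 0.313, while the median over all genes within DG was -0.27.

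Nrgn (ENSMUSG00000053310, chromosome 9 at 37544492 to 37552904) had the treatment value nearest to 0 of the 9. It reached 1984, 1539 and 2267 CPM in dissociated CA1 and 1489.6, 1809 and 1740.4 CPM in control CA1, then 1694 and 1333 against 1341 and 1628 CPM in CA3, and 1077 and 1554 against 1406 and 2316 CPM in DG. The groups overlapped in every subregion. Its log2 fold change was -0.04 ± 0.19 (95% interval -0.43 to 0.34, edgeR adjusted p = 0.953).

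Fitted within subregions, again 0 of the 9 members were called in CA1, in CA3 or in DG (edgeR and DESeq2), where 0.191%, 0% and 0.161% of all genes were called by edgeR. In CA1 the members ran from -0.91 ± 0.51 for Camk4 to 1.24 ± 0.66 for Camk2d, and 0 had an unadjusted p under 0.05. In CA3 they ran from -0.49 ± 0.53 for Camk2g to 0.81 ± 0.38 for Camk2n1 (unadjusted p = 0.0426, edgeR adjusted p = 1.00), the single member with an unadjusted p under 0.05. In DG they ran from -1.36 ± 0.80 for Camk2d to 0.25 ± 0.56 for Camk2g, and Calm3 was the single such member. Over all genes, 11.2% in CA1, 4.0% in CA3 and 14.1% in DG had an unadjusted p under 0.05 (edgeR). DESeq2 called 206, 0 and 104 genes in these subregions. The interaction of treatment with subregion was called for 0 of 9 members and 0% of all genes by edgeR. At an unadjusted p under 0.05 there were 0 members and 8.51% of all genes. DESeq2 also called 0 of the 9, and 28 genes in all.

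**Figure D2:**
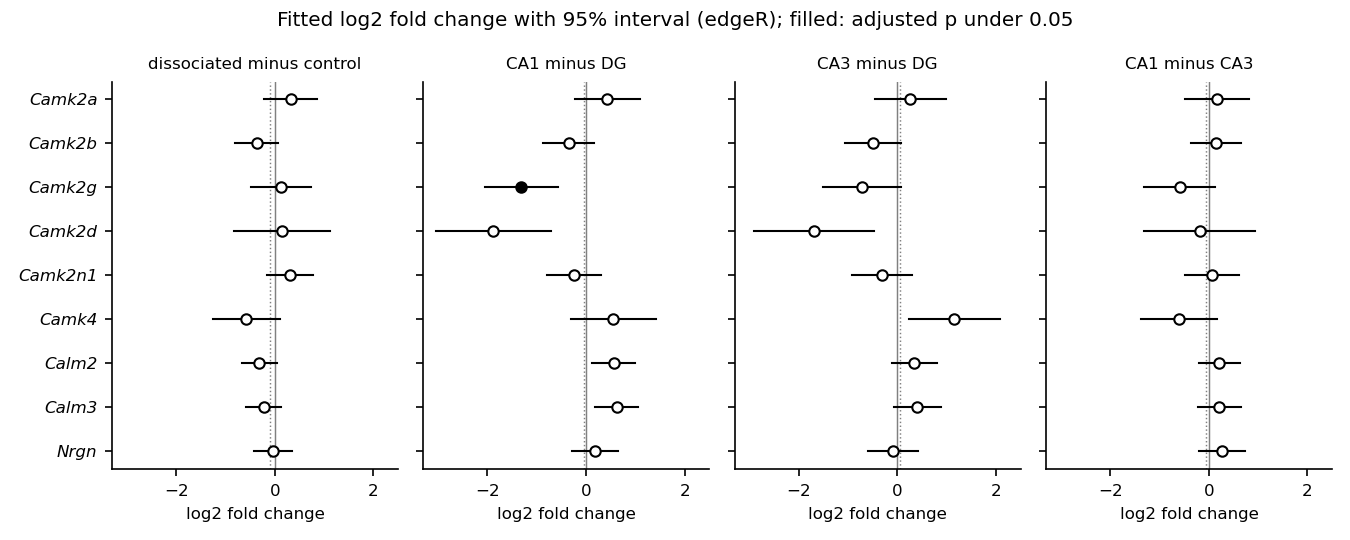
Fitted log2 fold change of each of the 9 genes (points) with its 95% interval (lines) in 4 comparisons; filled points have an edgeR adjusted p under 0.05, the solid line marks 0 and the dotted line the median of all genes tested. The filled point is Camk2g between CA1 and DG, at -1.31; Camk2d lies lower, at -1.88, with a wider interval.

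A single member was called between subregions. Against DG, CA1 had lower Camk2g, the gene of the gamma subunit, which is known in cultured neurons for carrying calcium/calmodulin to the nucleus. It was the 1 member of 9 called by edgeR between CA1 and DG, where 4.06% of all genes were called, 2.07% lower in CA1. The median log2 fold change of the members was 0.18 and that of all genes -0.04.

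Camk2g (ENSMUSG00000021820, chromosome 14 at 20734875 to 20794088) had 119, 27.4 and 205 CPM in dissociated CA1 and 75.6, 80.1 and 104 CPM in control CA1. In DG it had 265 and 288 CPM in dissociated and 166 and 301 CPM in control libraries. Within each treatment every DG library was above every CA1 library. The log2 fold change of CA1 against DG was -1.31 ± 0.35 (edgeR adjusted p = 0.0368), from means of 102 ± 59.3 CPM in CA1 (SD, n = 6) and 255 ± 61.0 CPM in DG (SD, n = 4). CA3 lay between, with 171 and 81.8 CPM in dissociated and 233 and 126 CPM in control libraries, and was not called against DG (-0.72 ± 0.39, edgeR adjusted p = 0.489) or against CA1. The direction held in all 14 fits that left out 1 library, but the call held in only 4 of them. These were the fits without DG control replicate 2, without CA3 control replicate 1, without CA3 dissociated replicate 4, and without the third dissociated CA1 replicate, while leaving out any of the 10 other libraries ended the call. The value was weakest without DG control replicate 3 (-1.08, edgeR adjusted p = 0.213) and strongest without CA1 dissociated replicate 3 (-1.56, edgeR adjusted p = 0.0057), the CA1 library with the lowest CA1 markers. A contrast of the control groups alone gave -1.44 ± 0.47 and was not called (edgeR adjusted p = 0.168). Scaling and spread for it came from all 14 libraries. Between dissociated and control tissue Camk2g gave 0.13 ± 0.30 (95% interval -0.48 to 0.74, edgeR adjusted p = 0.896).

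Camk2d (ENSMUSG00000053819, chromosome 3 at 126596302 to 126846326) encodes the delta subunit, best known as the CaMKII of the heart. It was the rarest CaMKII gene, with 11.6, 27.4 and 29.7 CPM in dissociated CA1 and 5.37, 11.1 and 8.06 CPM in control CA1. The groups did not overlap there, but the lowest dissociated and highest control values were 11.6 and 11.1 CPM. The 27.4 and 29.7 CPM came from 4 and 9 counts. In DG both dissociated libraries lay below both control ones, and 2.77% of all genes separated in opposite directions in CA1 and DG as Camk2d did. Both control DG libraries had 59.4 CPM, from 81 and 371 counts, the highest levels of all 14. The dissociated DG libraries had 0 and 29.8 CPM, and the 0, in a library of 65887 counts, allows up to 46.8 CPM. CA3 had 20.97 and 6.51 CPM in dissociated and 9.23 and 18.3 CPM in control libraries. The log2 fold change of CA1 against DG was -1.88 ± 0.56, with an edgeR adjusted p of 0.0626. The difference was called with DESeq2 (-1.81, adjusted p = 0.0191) and without the 3 dissociated libraries under 500000 counts (-2.33, edgeR adjusted p = 0.00693). Between the control groups of the fit of all 14 libraries it was called too (-2.82 ± 0.62, edgeR adjusted p = 0.0222, where 1.68% of all genes were called). It was also called without CA1 dissociated replicate 3 (-2.12), DG dissociated replicate 3 (-2.10) or DG dissociated replicate 4 (-2.15), with edgeR adjusted p of 0.0194 to 0.0413. Leaving out any of the 11 other libraries gave no call, nor did 3 of 7 other alternatives, and on log2(TPM + 0.1) the value was 0.0117. CA3 against DG gave -1.70 ± 0.59 (unadjusted p = 0.0083, edgeR adjusted p = 0.172), and treatment across subregions 0.15 ± 0.47 (95% interval -0.82 to 1.12, edgeR adjusted p = 0.929).

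The remaining members had no difference between subregions called by edgeR. Calm2 and Calm3 were higher on average in CA1 than in DG by 0.56 ± 0.21 and 0.62 ± 0.21 on the log2 scale (edgeR adjusted p = 0.155 and 0.110). DESeq2 called both (0.53 and 0.57, adjusted p = 0.0235 and 0.00954), which with Camk2g and Camk2d made 4 of 9, where DESeq2 called 7.64% of all genes. Calm3 averaged 2037 ± 239 CPM in CA1 and 1341 ± 403 CPM in DG (SD, n = 6 and 4), and without DG control replicate 2 its log2 difference was 0.86 and was called (edgeR adjusted p = 0.0239), the 1 such fit of 14 with a library left out. Between the control groups of the same 14 libraries Calm3 gave 0.28 ± 0.28 (edgeR adjusted p = 0.878). Between CA3 and DG 0 of 9 members were called by edgeR and by DESeq2, against a background of 1.77% with edgeR and of 499 genes with DESeq2. Camk2d and Camk4 had an unadjusted p under 0.05 (edgeR), as did 1572 of all 13063 genes. Camk4 averaged 104 ± 18.9 CPM in CA3 and 46.7 ± 24.9 CPM in DG (SD, n = 4 each), a log2 difference of 1.15 ± 0.44 (unadjusted p = 0.0162, edgeR adjusted p = 0.245). Between CA1 and CA3 0 of 9 were called by edgeR and by DESeq2, with a background of 0.115% and of 63 genes. At an unadjusted p under 0.05 (edgeR) there were 0 members and 5.37% of all genes. Camk2a, Camk2b, Camk2n1 and Nrgn had differences between -0.50 and 0.43 in all 3 subregion comparisons. Marker sums of other cell types overlapped between CA1 and DG. Oligodendrocyte markers summed to 639 to 6168 CPM in CA1 and 1873 to 9396 CPM in DG, with 2 of 10 called lower in CA1. Interneuron markers summed to 484 to 782 and 246 to 1008 CPM, with 1 of 9 called higher in CA1. Over all genes 4.06% were called (edgeR). Excitatory neuron markers summed to 5478 to 9679 CPM in CA1 and 3855 to 8847 CPM in DG, and astrocyte markers to 1977 to 4199 and 2252 to 5809 CPM. The part of these cell types in the Camk2g and Camk2d differences was not tested.

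Since CaMKII rings mix subunits, the make-up of the 4 CaMKII transcripts was compared within each library, where library scaling cancels. Over all 14 libraries Camk2a made up 61.3 ± 9.75% of their summed TPM, Camk2b 34.3 ± 7.94%, Camk2g 3.85 ± 2.76% and Camk2d 0.596 ± 0.56%. The mean ratio of alpha to beta transcripts was higher in dissociated than in control libraries, and higher in CA1 than in DG. The log2 ratio of Camk2a to Camk2b TPM was 1.69, 1.29 and 1.52 in dissociated CA1, against 0.88, 0.90 and 0.58 in control CA1. It was 0.89 and 1.82 in dissociated and 1.06 and 0.43 in control CA3, and 0.10 and 0.73 in dissociated and 0.03 and 0.12 in control DG. The groups were apart in CA1 and overlapped in CA3 and DG.

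Across subregions the ratio averaged 1.15 ± 0.61 in dissociated and 0.57 ± 0.40 in control libraries (SD, n = 7 each). The mean of the within-subregion differences was 0.55 (two-sided exact permutation test within subregions, p = 0.0139, adjusted p = 0.0278 over 4 comparisons, smallest possible p 0.00278), with 0.71 in CA1, 0.61 in CA3 and 0.33 in DG. The ratio averaged 1.14 ± 0.43 in CA1 and 0.24 ± 0.32 in DG (SD, n = 6 and 4), a difference of 0.90 (exact permutation within treatments, p = 0.01, its lower limit, adjusted p = 0.0278). CA3, at 1.05 ± 0.58 (SD, n = 4), differed from DG by 0.80 (exact permutation within treatments, 36 assignments, p = 0.0556, its lower limit, adjusted p = 0.0741). CA1 differed from CA3 by 0.09 (exact permutation p = 0.70). Over the 14 fits with 1 library left out the treatment difference ran from 0.40 to 0.71, with an unadjusted exact permutation p under 0.05 in 13 of them. The other was the fit without CA3 control replicate 4 (0.45, exact permutation p = 0.0806). The difference of CA1 and DG ran from 0.74 to 1.06, with an unadjusted exact permutation p of 0.01 to 0.025, the smallest each set of libraries allows. Without the 3 libraries under 500000 counts the treatment difference was 0.72 (unadjusted exact permutation p = 0.0278) and that of CA1 and DG 0.84, where the exact permutation p of 0.05 was the smallest possible. Adjusted over the 4 comparisons, the exact permutation p for treatment reached up to 0.107 with libraries left out. As each library was dropped in turn, it stayed under 0.05 for treatment 7 times out of 14. For CA1 and DG the adjusted p did so 8 times out of 14. Fewer libraries raise the lowest p the test can give. Each p for CA1 and DG was at that limit, so the adjusted values say nothing on whether that difference is stable. For treatment, the adjusted result depended on which library was dropped. Camk2g made up 6.46 ± 3.29% of the CaMKII TPM in DG libraries, 3.88 ± 1.98% in CA3 and 2.09 ± 1.32% in CA1 (SD, n = 4, 4 and 6), which repeats the order of its CPM.

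**Figure D3:**
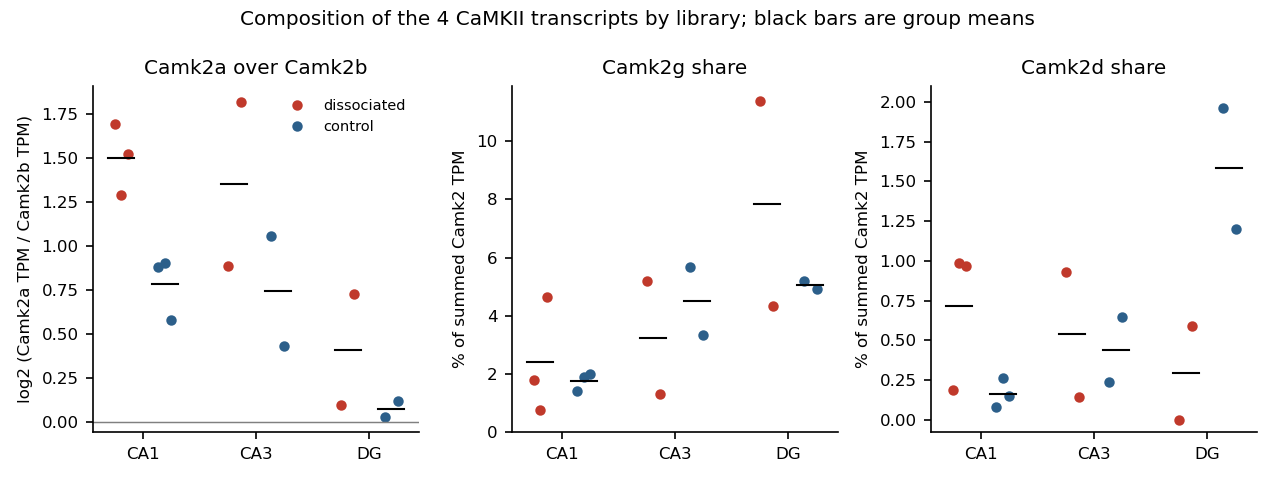
Make-up of the 4 CaMKII transcripts in each library by subregion (x axis): log2 ratio of Camk2a to Camk2b TPM (left), and Camk2g (middle) and Camk2d (right) as a percentage of the summed TPM of the 4 genes; red points are dissociated, blue points control libraries and black bars group means. The ratio runs from 1.29 to 1.69 in dissociated and 0.58 to 0.90 in control CA1, and the control DG libraries lie near 0, where both transcripts are equally abundant.

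The main transcript of most members was clear. Camk2a-001 carried 90.7% of the Camk2a TPM over all libraries, Camk2b-003 86.5% of Camk2b and Calm3-001 97.5% of Calm3, and Calm2, Camk2n1, Camk4 and Nrgn were each represented by 1 transcript. Camk2g was split among its 3 transcripts, with 47.7% for Camk2g-201, 27.2% for Camk2g-202 and 25.1% for Camk2g-203, and the 9 Camk2d transcripts with at least 5% of that gene's TPM ranged up to 18.4% for Camk2d-016.

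The Camk2g transcripts, which differ by the stretch shown above, varied widely between libraries. Camk2g-201, which holds the whole stretch, took 0% and 60.5% of the Camk2g TPM in dissociated DG, against 99.2% and 81.2% in control DG. In CA1 it took 14%, 0% and 0% in dissociated and 8.0%, 79.1% and 38.6% in control libraries, and in CA3 52.7% and 0% in dissociated and 46.5% and 84.1% in control libraries. Camk2g-203, which lacks the stretch, made up 100% of the estimate in the 3 libraries under 500000 counts, from 4, 62 and 17 estimated counts. Its shares in the 11 other libraries ran from 0% to 38.8%. Between CA1 and DG Camk2g-201 had a log2 fold change of -2.86 ± 1.06 (unadjusted p = 0.016, edgeR adjusted p = 0.531).

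**Figure D4:**
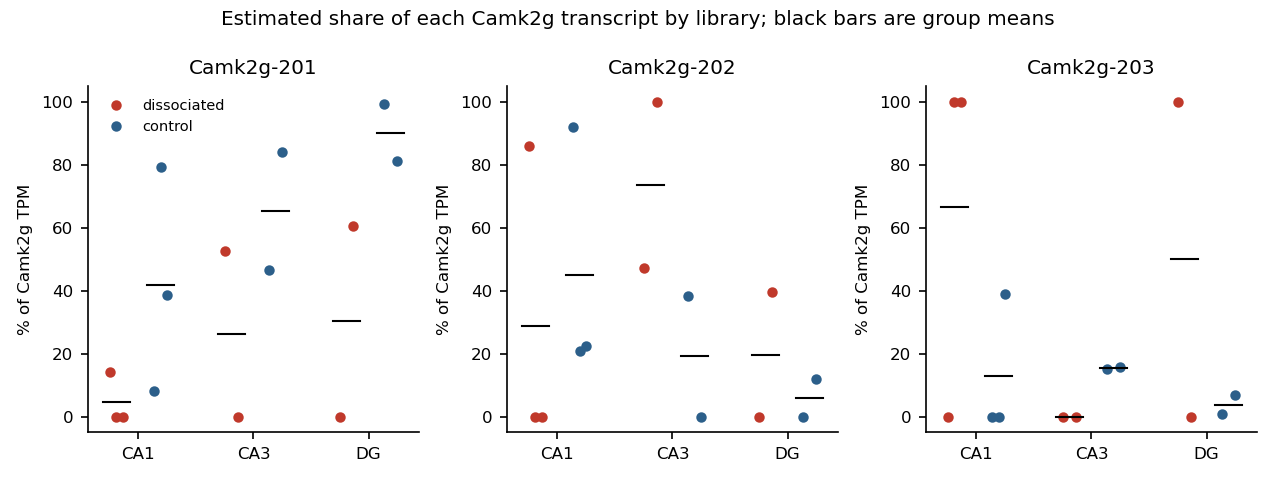
Estimated share of each Camk2g transcript in the gene's TPM (y axis, percent) in every library, by subregion (x axis); red points are dissociated and blue points control libraries, and black bars are group means. Shares spread over most of the range within groups, and the 3 points at 100% of Camk2g-203 are the 3 libraries under 500000 counts.

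Of the members' 19 transcripts with at least 5% of their gene's TPM, 17 could be tested, and 0 were called between dissociated and control tissue or in any pair of subregions (edgeR over 25388 transcripts). Over all transcripts, 0.00394% were called for treatment, 0.0354% between CA1 and DG, and 0% in the other 2 pairs. At an unadjusted p under 0.05 there were 3 of the 17 for treatment, 5 between CA1 and DG, 3 between CA3 and DG and 2 between CA1 and CA3. Over all 25388 transcripts the shares at that threshold were 10.6% for treatment, 7.98% between CA1 and DG, 7.78% between CA3 and DG and 5.04% between CA1 and CA3. The 3 for treatment were Calm2-001 (-0.52 ± 0.18), Camk2b-003 (-0.62 ± 0.24) and Calm3-001 (-0.45 ± 0.19), with edgeR adjusted p of at least 0.368, while the median over all transcripts was -0.44. At gene level Calm2, whose only transcript is Calm2-001, gave -0.31 ± 0.17, Camk2b -0.37 ± 0.21 and Calm3 -0.22 ± 0.17. The unadjusted edgeR p of these genes were 0.0763, 0.0847 and 0.206. Use of a transcript relative to the others of its gene was called for 0 of 12 (diffSpliceDGE in edgeR), against 0.227% of all transcripts for treatment and 0.0159% between CA1 and DG. Up to 2 of the 12, all of Camk2d, had an unadjusted p under 0.05 in a pair of subregions and 0 for treatment. Over all transcripts tested for use, 5.27% to 6.27% had such a p in these pairs and 7.74% for treatment. How kallisto divided reads among transcripts adds an error that these tests do not hold.

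Genes around these members in the pathway were counted from 6 lists. Over all genes, edgeR called 0.773% with dissociation, 4.06% between CA1 and DG, 1.77% between CA3 and DG and 0.115% between CA1 and CA3. With dissociation a single gene of these lists was called by edgeR. It was Ppm1e, a phosphatase that removes the activating phosphates of CaM kinases, lower in dissociated tissue with a log2 fold change of -0.97 ± 0.21 (edgeR adjusted p = 0.0229). Of the 14 other CaM kinase family genes and regulators, Camkv, a kinase-like protein without kinase activity, was called higher in CA1 than in DG (0.93 ± 0.23, edgeR adjusted p = 0.0213). Ppm1e was higher in CA1 and CA3 than in DG (1.70 ± 0.27 and 1.26 ± 0.28), and Pnck, a CaM kinase of the CaMKI group, was lower in both (-1.59 ± 0.40 and -1.73 ± 0.44). No other gene of that list was called, and its median log2 fold change between CA1 and DG was 0.47, against -0.04 over all genes.

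Of 12 tested genes on the list of calcium buffers and calmodulin-related proteins, 3 were called between CA1 and DG, as were 4.06% of all genes. The calcium sensor Hpca was higher in CA1 and in CA3 than in DG (1.13 ± 0.24 and 1.11 ± 0.26), and so was the calcium buffer parvalbumin, Pvalb (4.02 ± 0.99 and 5.05 ± 1.00), a marker of a class of interneurons. Pcp4, a small protein that speeds the exchange of calcium on calmodulin, was lower in CA1 than in DG (-6.83 ± 0.96) and than in CA3 (-5.50 ± 0.94). For calcineurin, the phosphatase that calmodulin activates, 1 of 9 genes was called, its regulatory subunit Ppp3r1, higher in CA1 than in DG (0.85 ± 0.21, edgeR adjusted p = 0.0185). Of 7 calcium-regulated cyclases, phosphodiesterases and synthases, the calmodulin-activated phosphodiesterases Pde1a and Pde1b were called in opposite directions in CA1 against DG (2.86 ± 0.65 and -1.90 ± 0.40), and Pde1b was also lower in CA3 than in DG (-2.02 ± 0.45). In the contrast of control groups, Ppm1e and Pcp4 were called between CA1 and DG, whereas Camkv, Pnck, Hpca, Pvalb, Ppp3r1, Pde1a and Pde1b were not. The differences between CA3 and DG and between CA1 and CA3 described for these genes were not called in that contrast (edgeR).

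The 13 synaptic partners and substrates of CaMKII all had positive fold changes in CA1 against DG. Their median was 0.69, against -0.04 over all genes, and 1 of them passed the test, as did 4.06% of all genes. It was Kcnd2, a potassium channel subunit (1.34 ± 0.36, edgeR adjusted p = 0.0336). In the contrast of control groups Kcnd2 was not called and Grin2b was (edgeR). The AMPA receptor subunit Gria1 (0.73 ± 0.25), the NMDA receptor subunits Grin1 (0.59 ± 0.22) and Grin2b (1.20 ± 0.40) and the scaffold Dlg4 (0.76 ± 0.28) did not pass over all libraries. Excitatory neuron markers summed to a median of 7126 CPM in CA1 and 5209 CPM in DG libraries, with overlapping ranges. Their part in the differences between CA1 and DG was not tested. With dissociation 11 of the 13 had negative fold changes, with a median of -0.42, against -0.11 over all genes, and 0 called by edgeR. Markers of excitatory neurons had a median of -0.28, with 2 of 13 positive and 0 called, and their part in these values was not tested. Of the 8 genes around CREB, the nuclear target of CaMKIV, 0 were called with treatment or between subregions (edgeR), and Creb1 itself had values between -0.03 and 0.19.

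The tested genes whose levels followed each member most closely were found by Pearson correlation of log2 CPM across the 14 libraries, among 7681 candidates averaging 20 CPM or more. All libraries share 1 animal, and differences of depth and subregion enter these values, which are descriptions. Closest to Camk2a were Ncs1 (0.93), Prrc2a (0.91) and Nsmf (0.91), and closest to Camk2b were Ncdn (0.94), Syt7 (0.94) and Ppfia2 (0.89). For Camk2g they were Tnip2 (0.92), Lrrc4 (0.91) and Haus8 (0.91), and for Camk2d Slc29a4 (0.93), Ss18 (0.93) and Hap1 (0.92). For Calm2 they were Pnma2 (0.94), Cx3cl1 (0.92) and Arf1 (0.91), and for Calm3 Ufm1 (0.96), Rnf41 (0.93) and Cd34 (0.93). Camk2n1, with Csnk1g2 (0.79), Ttyh1 (0.74) and Cdk16 (0.73), and Nrgn, with Mark2 (0.84), Slc7a4 (0.84) and Prpf40b (0.82), had the lowest best values. Camk4 had the highest, with 2610002M06Rik, Tmem9b and Tiprl at 0.97 each. Over the 11 libraries of at least 500000 counts the values for Camk4 dropped to 0.70, 0.64 and 0.72 and those for Nrgn to 0.74, 0.73 and 0.66. Those for Camk2n1 were 0.78, 0.80 and 0.72, for Camk2d 0.88, 0.85 and 0.90 and for Camk2g 0.86, 0.83 and 0.90, whereas those for Camk2a, Camk2b, Calm2 and Calm3 stayed between 0.84 and 0.94.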

How the data were processed

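RNA-seq libraries were analysed from dissociated and control tissue of CA1, CA3 and DG. The submitters' processing notes name FastQC, cutadapt, kallisto and DESeq2, without versions. No source used here gives the genome build, the annotation release or the strand. Per the file headers, kallisto's tables give an estimated count and a TPM value for each transcript. In the deposited gene table, each of 314790 counts lay within 0.5 of the sum of its gene's transcript estimates. Positions and sequences are from GENCODE M21 (GRCm38), in which 36 of the 39 transcripts of the 9 genes were found with the same version and length. The others, among them Camk2g-202 and Camk2g-203, were matched by identifier, and their coding range by its deposited length.

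Tests of counts used edgeR 4.0.16 (R 4.3.3), after filterByExpr on the 6 groups of subregion and treatment (minimum count 10, minimum total 15) and TMM scaling. Treatment and subregions came from an additive model of all 14 libraries, and treatment within subregions and the interaction from a model with 1 mean per group. Comparisons of control libraries are contrasts of the control groups in that second model. All 14 libraries therefore set their filter, scaling and spread. Log2 fold changes are dissociated minus control, or first-named minus second-named subregion, and values after ± are standard errors unless SD is stated. Rounded transcript estimates were tested the same way. TPM ratios were compared by exact permutation. The edgeR tests of treatment on genes and of transcript use with treatment were tried on simulated data. For transcript use these data held large changes in genes of small spread. Tests between subregions, the permutation test and the alternatives below were not tried in this way. Replicates of a group all differed by more than sampling noise (chi-square over genes), and none were merged. The limit printed beside a count of 0 is 3 counts of that library. It covers counting error alone, since no molecular identifiers are named in the sources. DESeq2 1.42.0, limma 3.58.1 on log2(TPM + 1) or log2(TPM + 0.1), RLE scaling, no filter, the contrast of control groups, a replicate block, and fits without the shallow libraries or each library in turn were alternatives. The 11-library correlations were added after seeing the data.

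All 9 members were reported, with their transcripts of at least 5% of the gene's TPM, the 3 most similar genes of each, and genes of 6 lists where called or highly expressed. Results of 1 listed gene are not reported here. Members and lists were chosen with earlier results of these data known, so a p over them is not independent evidence.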

Additional observations from a re-analysis of the deposited data

Results flagged for a closer look

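Camk2d and Camk2n1 had treatment values of opposite sign in different subregions. Every dissociated library lay on one side of every control library in each subregion named. Camk2d had a log2 fold change, dissociated minus control, of 1.24 in CA1 and -1.36 in DG, where 1 of the 2 dissociated libraries had 0 counts. In CA1, dissociated replicates 2 and 3 had only 4 and 9 counts. Over all 13063 genes, 2.77% separated in opposite directions in these subregions. Camk2n1 had 0.81 in CA3 and -0.46 in DG, where 5.53% of all genes separated in opposite directions. The test of the interaction with subregion did not call either gene (edgeR adjusted p = 0.603 for Camk2d and 0.618 for Camk2n1).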

How the results depend on the processing

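The count of members called for treatment, in all subregions or within each, for CA3 and DG, for CA1 and CA3 and for transcripts was 0 under every alternative run. For CA1 and DG it was 1 as reported, 3 with no filter, 4 with DESeq2, 2 without the 3 shallow libraries, 1 from control libraries (Camk2d, not Camk2g), 0 with limma on log2(TPM + 1) or on log2(TPM + 0.1), and 0 to 2 with 1 library left out. Over all genes the treatment calls numbered 101 as reported, 160 with RLE, 478 with DESeq2, 345 with no filter, 55 and 27 with limma on the 2 TPM scales, and 14 without the shallow libraries. For CA1 and DG they were 530 as reported, 998 with DESeq2, 900 with no filter, 164 and 74 on the TPM scales, 801 without the shallow libraries and 220 from control libraries. Whether libraries with the same replicate number form pairs was not settled. Correlations of 6 such pairs ran from -0.16 to 0.07, and 3 of 6 fitted best with their own number. Values were taken from the mean of each group, so the 2 libraries of a CA3 or DG group mirror each other. Both CA3 pairs therefore hold the same value, 0.067, and the check cannot decide the question. The replicate block called 0 members and 380 genes in all for treatment, and gave -0.00384 for Camk2a, -0.0806 for Camk2g and -0.18 for Camk2g within DG.

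The median of all genes for treatment was -0.64 on log2(TPM + 1), with 7 higher and 48 lower genes, and -0.88 on log2(TPM + 0.1), with 6 higher and 21 lower. On these scales the treatment values reversed to -0.16 and -0.16 for Camk2a, -0.35 and -0.77 for Camk2d, -0.37 and -0.38 for Camk2g and -0.11 and -0.11 for Camk2n1, each above that median. On log2(TPM + 0.1), CA1 against DG was 0.0117 for Camk2d and -0.19 for Camk4, and CA3 against DG was 0.14 for Camk2d. The treatment value of Nrgn was 0.075 with RLE, 0.080 with DESeq2 and 0.044 without the shallow libraries, where Camk2d had -0.030. Nrgn had -0.15 in CA1 against DG in control libraries. With 1 library left out, signs also turned for Camk2d (-0.090 to 0.35), Camk2g (-0.087 to 0.33) and Nrgn (-0.11 to 0.092) with treatment, for Camk2g within CA3 (-1.13 to 0.055) and DG (-0.064 to 0.75), for Camk2a (-0.033 to 0.60) and Nrgn (-0.23 to 0.20) in CA3 against DG, and for Camk2d (-0.47 to 0.16), Camk2n1 (-0.056 to 0.45) and the ratio of Camk2a to Camk2b (-0.14 to 0.33) in CA1 against CA3. That ratio ran from 0.40 to 0.71 for treatment and 0.74 to 1.06 for CA1 against DG, and was 0.72 and 0.84 without the shallow libraries (exact permutation, adjusted p = 0.10 each, from a test whose smallest unadjusted p for CA1 against DG was then 0.05). The cause of these shifts was not tested. Depth limits Camk2d and Camk4 most, with 0 to 371 and 0 to 558 counts per library.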
